A study of Mus musculus with 14 samples.

Results

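Disease-associated microglia are the macrophages of the brain in the state they take up around amyloid plaques, and 10 genes of that state were followed here in the brains of old APP/PS1 mice. The 10 genes, Trem2, Tyrobp, Apoe, Lpl, Cst7, Itgax, Clec7a, Spp1, Axl and Hcar2, were chosen by name as the receptor TREM2, its adaptor, its lipid ligand and genes known to follow it, from the 43346 genes of the deposited table, in which they take up 11 rows because Clec7a has a 2nd row. All 10 passed the filter on low counts in each of the 3 comparisons. The choice of the members was made with earlier results of these data known. Shares of all genes set beside the members are therefore a description and no test of the set.

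RNA was sequenced from brain tissue with hippocampal and cortical regions of 14 female mice of the strain C57BL/6;SJL-Tg, all aged 23 months. NTG mice (4 libraries, numbered 7 to 10) were wild type, non-transgenic littermates. APP/PS1 mice (5 libraries, 16 to 20) carried the genotype label APP/PS1 +/+, with mutant APP and PS1 transgenes of familial Alzheimer's disease, and both of these groups drank water with 0.1% PEG, the vehicle. CP2-treated APP/PS1 mice (5 libraries, 21 to 25) had the same genotype and vehicle and received CP2, a compound that partially blocks complex I of the respiratory chain in mitochondria, at 25 mg/kg/day in the drinking water from 9 months of age, that is for 14 months. The labels call the first 2 groups non-treated, and they do not name the promoters that drive the transgenes. NTG mice given CP2 were not analysed here.

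TREM2 is a surface receptor of microglia that binds lipids, lipoproteins such as APOE, and amyloid. It has no signalling tail of its own and signals through the adaptor TYROBP (DAP12), whose phosphorylated motif recruits the kinase SYK and, further on, phospholipase C gamma 2. Microglia that lack TREM2 gather poorly at plaques and do not switch on the full set of plaque-associated genes, to which Apoe, Lpl, Cst7, Itgax, Clec7a, Spp1 and Axl belong.

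Total counts per mouse ranged from 70548781 to 106235625, so that 1 read was worth 0.00923 to 0.0149 CPM. The rarest member, Hcar2, still had 10 to 33 reads in each NTG mouse. No replicates were alike within sampling noise (26 pairs, lowest chi-square per degree of freedom 9.87), and 2 ribosomal RNA-like genes took 2.40 to 7.5% of the counts. The tissue label could be checked against markers: a list of 9 striatal genes summed to 2629 CPM in APP/PS1 mouse 16 and to 207 to 397 CPM in the other 13 mice. These genes are not cortical or hippocampal markers. A list of 7 thalamic genes was lowest in the same mouse, at 164 CPM, beside 320 to 458 CPM in the other APP/PS1 mice, 396 to 591 CPM in NTG mice and 388 to 597 CPM with CP2. The part of the tissue piece in the members' levels was not tested. Both comparisons that use mouse 16 and the correlations of members with Trem2 were also computed without it. The other relations between members, and those with the genes most like them, were computed only with it.

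Levels were first set side by side per length, with the RPKM values of the authors (reads per kilobase of gene, scaled to library size), the only scale here on which genes can be compared with each other. In APP/PS1 mice Apoe, the main lipid carrier made in the brain, stood highest at 988 ± 165 RPKM (mean ± SD, n = 5). Tyrobp followed at 94.6 ± 17.8 RPKM and Cst7, a lysosomal cysteine protease inhibitor, at 27.3 ± 8.32 RPKM. Below them lay Axl (14.1 RPKM), Trem2 (11.7 RPKM), Spp1 (9.62 RPKM), Lpl (6.05 RPKM), Clec7a (4.65 RPKM), Itgax (2.32 RPKM) and Hcar2 (1.33 RPKM). Neighbours from Cst7 down to Clec7a overlapped between mice in their ranges, and so did Itgax and Hcar2, whereas Apoe lay apart from Tyrobp, Tyrobp from Cst7, and Clec7a from Itgax.

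The order differed in NTG mice, in which the levels were 676 ± 57.9 RPKM for Apoe, 20.96 ± 2.59 RPKM for Tyrobp, 13.8 ± 12.6 RPKM for Spp1 and 9.58 ± 0.508 RPKM for Axl (n = 4). Lpl (3.98 RPKM) and Trem2 (2.05 RPKM) came next, and Clec7a (0.601 RPKM), Cst7 (0.527 RPKM), Itgax (0.201 RPKM) and Hcar2 (0.120 RPKM) were lowest. Cst7 was thus 8th of 10 in NTG and 3rd of 10 in both APP/PS1 groups. In CP2-treated APP/PS1 mice the order was that of vehicle-treated APP/PS1 mice except that Spp1 (10.8 ± 6.07 RPKM) and Trem2 (9.32 ± 2.36 RPKM) changed places, and these 2 overlapped in both groups. The lengths behind the RPKM values differ widely, with 4946 bases for Trem2 and 564 for Tyrobp, and a longer length lowers an RPKM.

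The start regions of Trem2 and of 3 members with larger fold changes between APP/PS1 and NTG mice are shown, so that the sequence beside each start can be read with these values. RefSeq's table of start regions (build GRCm38.p6, 250 bases before to 50 after each start) held 7 of the 10 members, all but Tyrobp, Lpl and Hcar2. Printed are positions -130 to 20, with the start base counted as 1, at chr17:48346271-48346420 (plus strand) for Trem2, chr2:150570285-150570434 (plus strand) for Cst7, chr7:128129420-128129569 (plus strand) for Itgax, chr6:129472760-129472909 (minus strand) for Clec7a, with capitals marking the PU.1 core motif GAGGAA (on the other strand TTCCTC) and the AP-1 motif TGANTCA.
Trem2: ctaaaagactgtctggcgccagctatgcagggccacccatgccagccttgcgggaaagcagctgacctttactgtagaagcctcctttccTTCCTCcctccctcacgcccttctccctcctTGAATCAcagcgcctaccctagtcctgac
Cst7: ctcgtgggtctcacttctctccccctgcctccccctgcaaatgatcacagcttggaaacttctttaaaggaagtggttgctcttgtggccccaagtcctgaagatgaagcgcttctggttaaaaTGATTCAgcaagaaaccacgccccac
Itgax: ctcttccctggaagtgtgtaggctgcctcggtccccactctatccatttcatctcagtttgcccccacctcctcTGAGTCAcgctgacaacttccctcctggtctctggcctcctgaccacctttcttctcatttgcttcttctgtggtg
Clec7a: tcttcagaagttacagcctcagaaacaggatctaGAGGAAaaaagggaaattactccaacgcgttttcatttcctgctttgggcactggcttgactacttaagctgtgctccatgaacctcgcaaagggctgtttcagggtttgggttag
PU.1 is the transcription factor that defines macrophages and microglia, and AP-1 is made of Fos and Jun proteins. The PU.1 core was found on either strand in 5 of the 7 members with a start region, Trem2, Apoe, Clec7a, Spp1 and Axl, against 30.4% of the 11179 tested genes with one. The AP-1 motif, taken loosely with any base at its centre, was found in 3 of 7, Trem2, Cst7 and Itgax, against 6.19% of those genes. Its letters were TGAATCA in Trem2, TGATTCA in Cst7 and TGAGTCA in Itgax, and only Itgax had C or G at the centre. An interferon-response type motif, GAAA and GAAA separated by any 2 bases, was found in 1 of 7 (Spp1, 3.58% of tested genes) and the E-box CACGTG in 0 of 7 (11.4%). Both strands were searched, and a gene with several start regions counted when any of them held the motif. In the printed sequences only Trem2 holds both a PU.1 core (at -40) and an AP-1 motif of this loose form (at -9), which share no bases. A match of letters describes these windows only and is no sign of binding.

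The first comparison, APP/PS1 against NTG mice, asks how far the genes of this state differ in plaque-bearing brains. Of the 10 members 8 rose, by edgeR's quasi-likelihood test with Benjamini-Hochberg adjustment over 16417 genes, all but Lpl and Spp1, while 4.34% of all genes tested rose and 1.34% fell. Their sizes spread widely, from 1.40-fold for Apoe to 49.1-fold for Cst7. The same 8 members had every APP/PS1 mouse above every NTG mouse, which held for 5.93% of all genes tested. Cst7, Itgax and Hcar2 are among them and passed the filter only through the APP/PS1 mice. The median log2 fold change of the 10 members was 2.29, beside -0.004 for all genes tested. Without mouse 16 the same 8 members rose. Their log2 fold changes were then 2.51 for Trem2, 2.19 for Tyrobp, 5.76 for Cst7 and 3.60 for Itgax. Those of Clec7a (2.93), Hcar2 (3.57), Apoe (0.55) and Axl (0.58) were on the same scale.

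**Figure D1:**
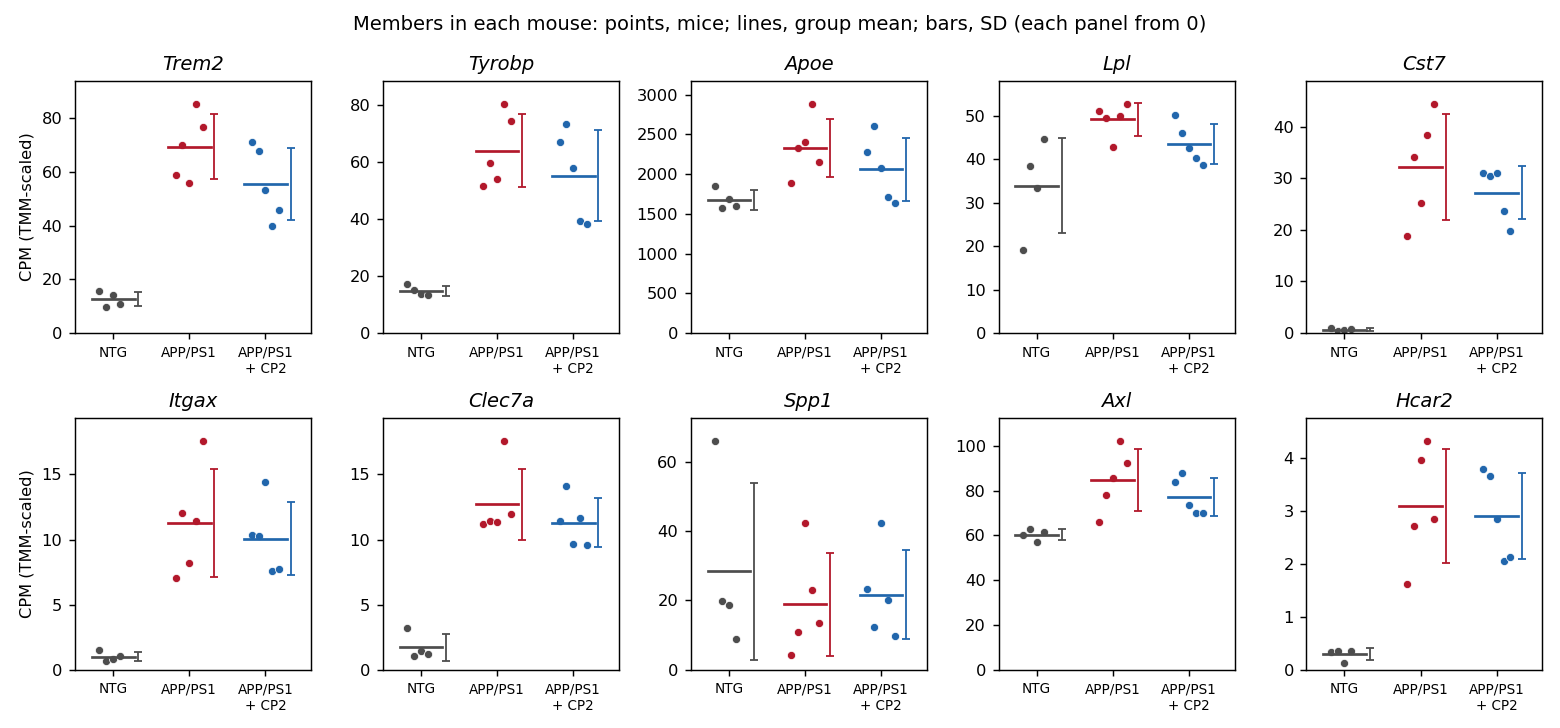
CPM (counts scaled to the TMM-adjusted library size, linear axes from 0) of the 10 members in each mouse, by group, with points for mice, horizontal lines for group means and bars for the SD. Trem2 lies at 9.88 to 15.7 CPM in NTG and at 56.0 to 85.3 CPM in APP/PS1 mice, whereas Spp1 overlaps widely between the groups, with 1 NTG mouse at 66.0 CPM.

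Trem2 (ENSMUSG00000023992, chr17:48346401-48354147 in mm10, plus strand), the receptor, stood at 15.7, 9.88, 14.2 and 10.9 CPM in NTG mice 7 to 10. In APP/PS1 mice 16 to 20 it stood at 58.9, 69.8, 56.0, 85.3 and 76.6 CPM. No APP/PS1 mouse came near the NTG range. Its log2 fold change was 2.46 (SE 0.18, 5.51-fold, adjusted p = 0.000119), rank 9 of 16417 genes by p.

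Tyrobp (ENSMUSG00000030579, chr7:30413788-30417577, plus strand), the adaptor, was at 17.3, 15.1, 13.7 and 13.3 CPM in NTG mice. It was at 51.4, 59.6, 54.0, 80.3 and 74.3 CPM in APP/PS1 mice 16 to 20, with mouse 16 lowest and mouse 19 highest. Its log2 fold change was 2.12 (SE 0.16, 4.34-fold, adjusted p = 0.000119). The 95% intervals of the receptor and the adaptor, 2.07 to 2.86 and 1.77 to 2.47, overlapped.

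Apoe (ENSMUSG00000002985, chr7:19696109-19699166, minus strand) is made mainly by astrocytes in the healthy brain and by microglia near plaques. It stood at 1848, 1576, 1682 and 1594 CPM in NTG mice and at 1889, 2330, 2408, 2882 and 2149 CPM in APP/PS1 mice 16 to 20. The groups did not overlap, but the gap was small, since APP/PS1 mouse 16 was only just above NTG mouse 7. By edgeR the log2 fold change was 0.49 (SE 0.12, 1.40-fold, adjusted p = 0.0394). This call was lost without NTG mouse 8 (adjusted p = 0.109), 9 (0.112) or 10 (0.0917) and without APP/PS1 mouse 17 (0.0696), 18 (0.0837) or 20 (0.0582), at log2 fold changes of 0.46 to 0.51, and without mouse 16 the change was 0.55 (adjusted p = 0.00663). It was also lost with the log2 share of ribosomal RNA-like counts as a covariate (0.57, adjusted p = 0.0660).

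Lpl (ENSMUSG00000015568, chr8:68880491-68907448, plus strand), the lipase that frees fatty acids from lipoproteins, was at 19.01, 38.5, 33.3 and 44.7 CPM in NTG mice. It was at 51.2, 49.5, 42.9, 49.98 and 52.7 CPM in APP/PS1 mice. NTG mouse 10 lay above APP/PS1 mouse 18, so that the groups overlapped. The log2 fold change of 0.55 (SE 0.20) did not pass the test (adjusted p = 0.165), and without NTG mouse 7, the lowest, it was 0.35 (adjusted p = 0.0965).

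Cst7 (ENSMUSG00000068129, chr2:150570415-150578944, plus strand), which encodes cystatin F, had the largest fold change among the members. NTG mice had 0.897, 0.327, 0.556 and 0.803 CPM, from 22 to 79 reads. APP/PS1 mice 16 to 20 had 18.8, 34.1, 25.3, 38.4 and 44.4 CPM, from 1633 to 4016 reads, so that no mouse lay between 0.897 and 18.8 CPM. This was a log2 fold change of 5.62 (SE 0.36, 95% interval 4.82 to 6.41, adjusted p = 8.12e-05), rank 4 of all genes by p.

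Itgax (ENSMUSG00000030789, chr7:128129547-128150656, plus strand) encodes the integrin CD11c, a surface marker of plaque-associated microglia and of dendritic cells. It stood at 1.49, 0.654, 0.809 and 1.09 CPM in NTG mice and at 7.06, 12.1, 8.22, 11.4 and 17.6 CPM in APP/PS1 mice, lowest again in mouse 16. The log2 fold change was 3.47 (SE 0.33, adjusted p = 0.000316). Of 6 listed dendritic cell markers 2 passed the filter on low counts, Flt3 and Zbtb46, and edgeR called 0 of them (smallest adjusted p 0.465, 0 with an unadjusted p under 0.05).

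Clec7a encodes dectin-1, a receptor for fungal glucans that signals through the same kinase as TREM2. Its main row (ENSMUSG00000079293, chr6:129461591-129472777, minus strand) held 3.23, 1.04, 1.40 and 1.19 CPM in NTG mice. APP/PS1 mice held 11.2, 11.4, 11.3, 17.6 and 11.97 CPM, 4 of them within 1 CPM of each other and mouse 19 above. Its log2 fold change was 2.89 (SE 0.34, 7.41-fold, adjusted p = 0.000905), and 3.399 without NTG mouse 7. A 2nd row named Clec7a (ENSMUSG00000102040, chr6:129463041-129472685) lies within the first, so that reads can count on both. It held 35.4% as many reads and gave a log2 fold change of 2.79 (SE 0.36, adjusted p = 0.00146). GENCODE vM21 lists the main row as a polymorphic pseudogene.

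Hcar2 (ENSMUSG00000045502, chr5:123863570-123865516, minus strand), the receptor for niacin and the ketone body hydroxybutyrate, was the scarcest member. It was at 0.329, 0.357, 0.126 and 0.353 CPM in NTG mice and at 1.61, 2.71, 3.96, 4.33 and 2.84 CPM in APP/PS1 mice. The groups lay apart, with a log2 fold change of 3.41 (SE 0.37, 10.6-fold, adjusted p = 0.000614).

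Axl (ENSMUSG00000002602, chr7:25757273-25788705, minus strand), a receptor kinase that takes part in clearing dying cells, stood at 60.1, 63.0, 57.0 and 61.4 CPM in NTG mice, the tightest group of any member (coefficient of variation 4.21%). In APP/PS1 mice it stood at 66.0, 77.9, 85.8, 102 and 92.5 CPM, with mouse 16 close to the NTG mice. By edgeR the log2 fold change was 0.50 (SE 0.12, 1.42-fold, adjusted p = 0.0324). The call was lost without NTG mouse 7 (adjusted p = 0.0750), 8 (0.0646), 9 (0.108) or 10 (0.0656) and without APP/PS1 mouse 18 (0.0668) or 20 (0.0758), at log2 fold changes of 0.47 to 0.52. Without mouse 16 it was 0.58 (adjusted p = 0.00173).

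Spp1 (ENSMUSG00000029304, chr5:104435118-104441050, plus strand) encodes osteopontin, a secreted protein that binds integrins and CD44 and is also made by other brain cells. It stood at 66.0, 19.9, 18.6 and 8.96 CPM in NTG mice and at 4.33, 10.9, 42.4, 22.9 and 13.6 CPM in APP/PS1 mice. The groups overlapped over nearly their whole range. The log2 fold change of -0.58 (SE 0.67, adjusted p = 0.713) turned to 0.26 (adjusted p = 0.881) without NTG mouse 7. Its SD within groups, 1.1 on the log2 scale, was larger than that of 99.6% of the 16521 genes tested in any comparison. In mouse 7 a list of 7 oligodendrocyte genes summed to 7677 CPM, beside 5306 to 5679 CPM in the other NTG mice, and the part of these cells in the Spp1 level was not tested.

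**Figure D2:**
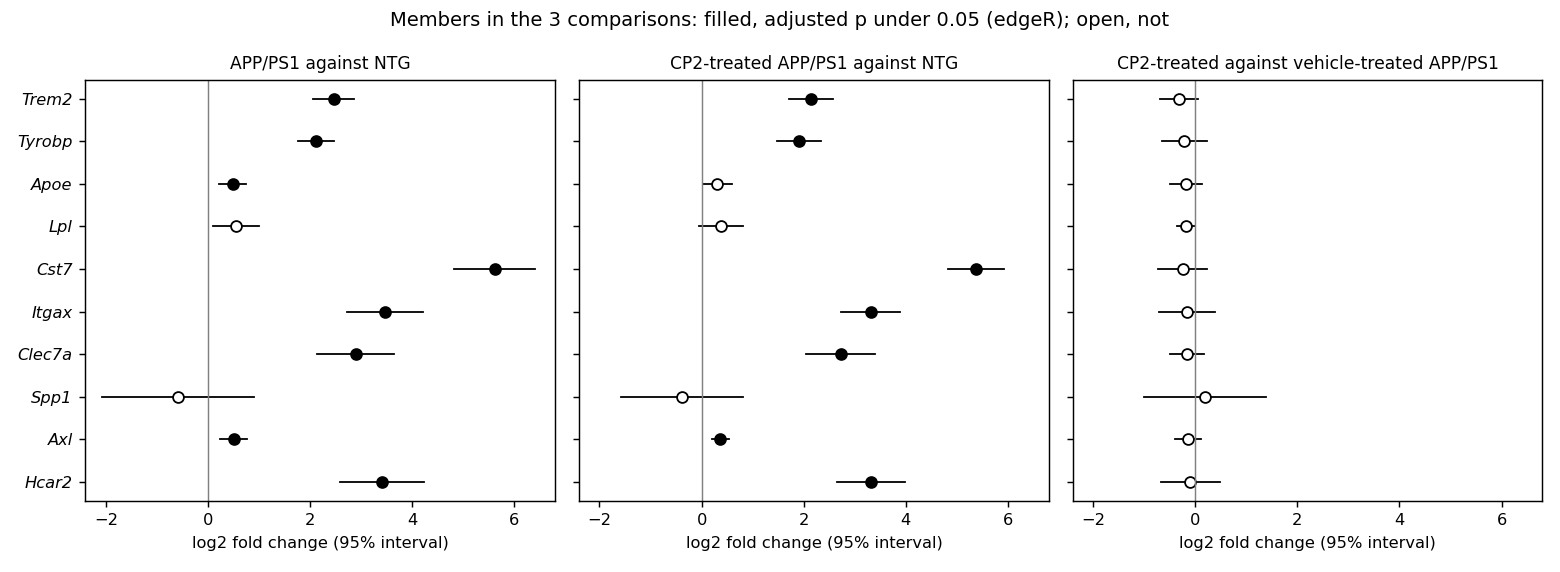
Log2 fold changes of the 10 members with 95% intervals in the 3 comparisons, from edgeR, with filled points for an adjusted p under 0.05 and open points otherwise. Both comparisons with NTG show 6 members at log2 fold changes of 1.91 or more, whereas every point of CP2 against vehicle lies between -0.32 and 0.20.

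In bulk tissue fewer cells of a type and less RNA per cell cannot be told apart, so the members were also read against genes that all microglia express. All 13 genes of a pan-microglia list rose in APP/PS1 mice, with a median log2 fold change of 1.40, among them Csf1r (1.05, adjusted p = 0.000175), the receptor on which microglia depend for survival, and C1qa (1.74, adjusted p = 0.000494), a complement subunit. The list's sum was 367 to 395 CPM in NTG and 743 to 1226 CPM in APP/PS1 mice, lowest in mouse 16. Of 13 genes of resting, homeostatic microglia 7 rose and none fell at an adjusted p under 0.05, with a median of 0.85. Of all genes tested 4.34% rose and 1.34% fell. Gpr34 (1.32), Siglech (1.11) and Cx3cr1 (1.1) were among those with the smallest p. Of the 13, 12 lay above 0 and 1 below, at -0.54 with an unadjusted p under 0.05 (edgeR).

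Relative to the mean log2 CPM of the pan-microglia list in the same mouse, 6 members stood higher in every APP/PS1 mouse than in any NTG mouse, which held for 0.381% of the 16521 genes. These differences, on the log2 scale, were 4.29 for Cst7, 2.11 for Itgax, 1.99 for Hcar2, 1.67 for Clec7a, 1.13 for Trem2 and 0.76 for Tyrobp. Trem2 lay at -0.50 ± 0.25 in NTG (n = 4) and at 0.63 ± 0.17 in APP/PS1 mice (n = 5), and Tyrobp at -0.25 ± 0.11 and 0.51 ± 0.12. Apoe and Axl went the other way without overlap, by -0.86 and -0.85, as 93.0% of all genes did. Apoe lay at 6.57 ± 0.03 in NTG and 5.71 ± 0.15 in APP/PS1 mice. Lpl (-0.72) and Spp1 (-1.91) overlapped between the groups.

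**Figure D3:**
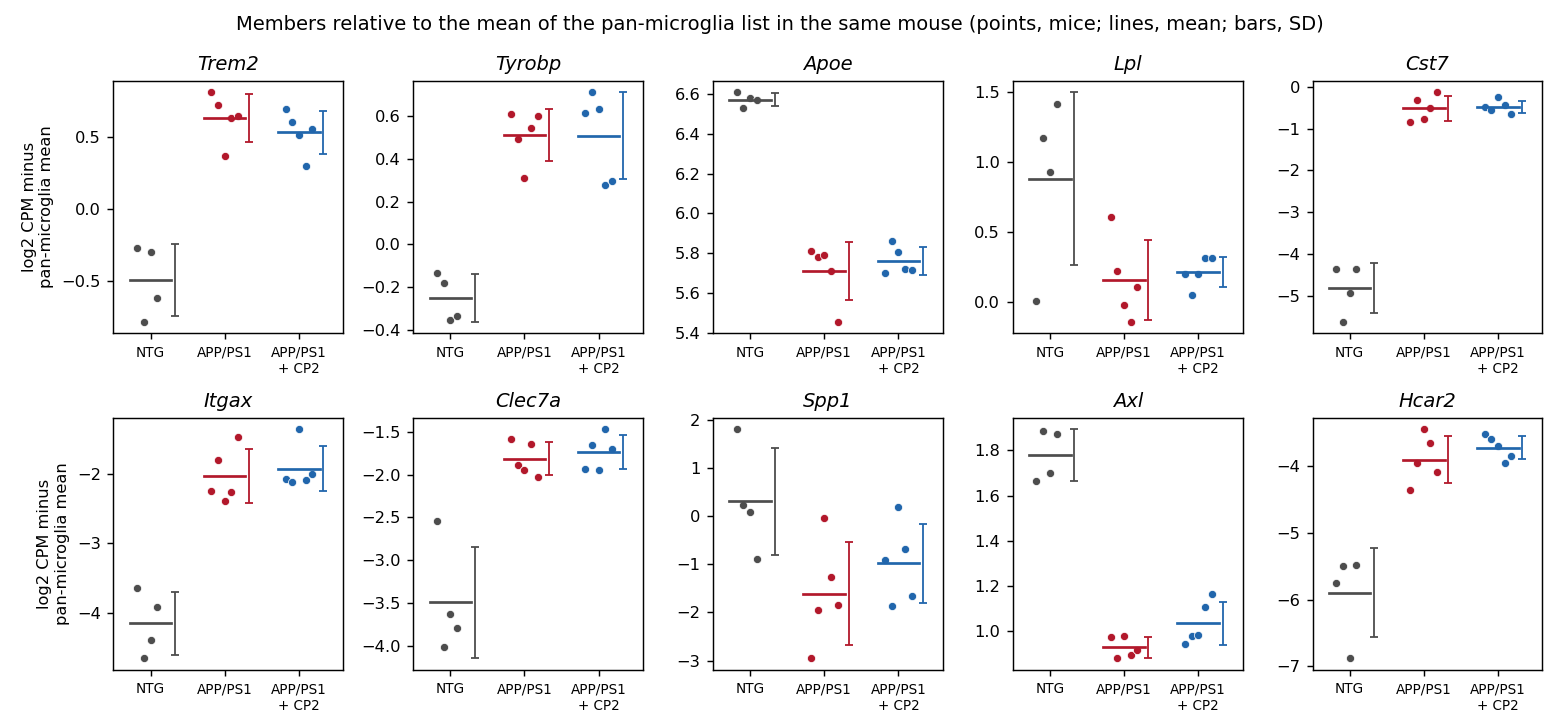
Log2 CPM of each member minus the mean log2 CPM of the 13 pan-microglia genes in the same mouse, by group, with points for mice, lines for means and bars for the SD (axes differ between panels). Trem2, Tyrobp, Cst7, Itgax, Clec7a and Hcar2 lie higher in both APP/PS1 groups than in NTG without overlap, Apoe and Axl lie lower, and the 2 APP/PS1 groups overlap for every member.

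With the homeostatic list as the reference the same 6 members stood higher without overlap (1.05% of genes), by 1.42 for Tyrobp, 1.79 for Trem2 and up to 4.95 for Cst7, while 78.2% of genes stood lower. Apoe (-0.20) and Axl (-0.19) then overlapped between the groups, so that in vehicle-treated mice their place below NTG depended on the pan-microglia list. In CP2-treated mice with this reference Apoe (-0.22) overlapped with NTG. Axl (-0.15) did not, at 1.42 to 1.73 with CP2 and 1.74 to 1.79 in NTG.

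Markers of other immune cells were measured beside these results. Of the border macrophage list (Mrc1, Lyve1, Cd163, F13a1, Pf4, Ms4a7 and Cbr2) 4 of 7 genes were tested and 0 were called (smallest adjusted p 0.117, edgeR, with 1 at an unadjusted p under 0.05), and the list's sum was 13.3 to 17.6 CPM in NTG and 17.3 to 22.6 CPM in APP/PS1 mice. Of 8 monocyte and neutrophil genes only Ly6c2 was tested (log2 fold change 0.74, adjusted p = 0.0598), with sums of 2.62 to 9.20 and 4.28 to 7.81 CPM. None of 7 T and NK cell genes passed the filter, and their sums were 0.283 to 0.454 CPM in NTG and 1.0 to 2.09 CPM in APP/PS1 mice. No gene of these lists was at 0 in every mouse of a group. Of 5 red cell genes 2 rose, Hba-a1 (1.77) and Hba-a2 (1.83), and of 7 astrocyte genes 1 fell, Slc1a2 (-0.41, adjusted p = 0.0442). Of all genes tested 4.34% rose, 1.34% fell and 5.93% stood higher without overlap. Cldn11, the tight junction protein of myelin and 1 of 7 oligodendrocyte genes, rose by 0.46 (adjusted p = 0.00366), and Pecam1, 1 of 5 endothelial genes, by 0.40 (adjusted p = 0.00965), both without overlap between the groups. The part of these cells in the members' levels was not tested.

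The signalling chain below TREM2 was read from a list of 19 genes. Of 17 tested genes of the chain and its regulators 9 rose and 0 fell, beside 4.34% of all genes tested that rose. The median log2 fold change of the 17 was 0.71, beside 1.40 for the pan-microglia list. Ptpn6, a phosphatase that damps such receptors, had the smallest p and rose from 3.87 ± 0.572 CPM (n = 4) to 12.02 ± 2.56 CPM (n = 5), a log2 fold change of 1.64 (SE 0.18, adjusted p = 0.00059). Pik3cg, a lipid kinase subunit, followed with 1.24, Vav1, an exchange factor, with 1.40, and Inpp5d, the lipid phosphatase SHIP1, with 1.18. The kinase Syk (0.72, adjusted p = 0.0470) and Plcg2 (0.96, adjusted p = 0.00656) also rose and were named after their values were seen, for their place in the chain. Vav3 (-0.67, adjusted p = 0.0518) and Pik3cd (-0.04, adjusted p = 0.906) did not pass.

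Most other genes known from plaque-associated microglia rose too. Of 31 tested 22 rose and 0 fell, beside 4.34% of all genes tested that rose. The median of the 31 was 1.49, beside 1.40 for the pan-microglia list. Neither this list nor the TREM2 chain was read relative to the pan-microglia list in the same mouse. Cd68, a lysosomal membrane protein, was at 6.73 ± 0.894 CPM in NTG and 32.6 ± 4.69 CPM in APP/PS1 mice, a log2 fold change of 2.28 (SE 0.13, adjusted p = 4.99e-05). The lysosomal proteases Ctsd and Ctsz rose by 1.53 and 1.52, and the chemokine Ccl4 by 2.94, from a mean of 0.250 CPM.

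Few genes around the lipid members passed the test. Beside 4.34% of all genes tested that rose, 2 of 20 tested genes of APOE lipid handling rose and 0 fell, with a median of 0.09. They were Abca1, the transporter that loads APOE with lipid (log2 fold change 0.51, SE 0.11, adjusted p = 0.0202), and Clu, another lipoprotein of the brain (0.38, SE 0.09, adjusted p = 0.0332). Apod, a lipocalin of glia, did not pass (0.64, adjusted p = 0.210). Of 10 tested genes of lipolysis and LPL's partners 0 were called by edgeR, 2 of them with an unadjusted p under 0.05, Lipe (0.24) and Lipa (0.31).

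Of 15 ligands, receptors and targets of the members 7 rose and 0 fell, beside 4.34% of all genes tested that rose. Itgb2, the integrin chain that pairs with CD11c, rose by a log2 fold change of 1.80 (SE 0.15, adjusted p = 0.000159), from 6.84 ± 0.534 to 23.7 ± 4.75 CPM. Ctsc, a protease whose activity cystatin F controls, rose by 1.18, Pros1, a ligand of the AXL family, by 0.96, and Itgb3, an integrin chain that binds osteopontin, by 1.02. Mertk, a relative of AXL, stood at 33.6 CPM in NTG and 36.2 CPM in APP/PS1 mice (0.12, adjusted p = 0.762).

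The 2nd comparison sets CP2 against vehicle in APP/PS1 mice and asks whether these levels moved with the treatment. No member was called (0 of 10, edgeR, beside 0.00609% of 16407 genes), 0 of 10 had groups without overlap (1.14% of genes), and 0 of 10 were called by DESeq2. Of the 10, 9 had a log2 fold change below 0, as did 52.5% of all genes tested, and 1 had an unadjusted p under 0.05, beside 3.66% of genes that did so on the lower side. That member was Lpl, at 50.2, 46.2, 42.7, 40.3 and 38.7 CPM in mice 21 to 25, a log2 fold change of -0.18 (SE 0.08, adjusted p = 0.744). The median over the members was -0.17, beside -0.006 for all genes, -0.22 for the pan-microglia list and -0.16 for the homeostatic list. With the log2 share of ribosomal RNA-like counts as a covariate the median was -0.35 and 10 of 10 lay below 0, with Itgax at -0.52, Cst7 at -0.51 and Axl at -0.27 at an unadjusted p under 0.05, and 0 of 10 were called (edgeR, smallest adjusted p 0.952).

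The 7 thalamic genes all lay above 0 between CP2 and vehicle, with a median log2 fold change of 0.57. Of them 3 had an unadjusted p under 0.05, Lef1 (0.59), Rora (0.43) and Plekhg1 (0.57), but 0 were called (edgeR, smallest adjusted p 0.744). The 9 striatal genes all lay below 0, with a median of -1.44, and 0 were called (edgeR, smallest adjusted p 0.744). Vehicle-treated mouse 16 had the lowest thalamic sum (164 CPM) and the highest striatal sum (2629 CPM) of all mice. The part of either list in the members' values was not tested.

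Trem2 stood at 70.9, 67.8, 53.1, 39.8 and 45.8 CPM in CP2-treated mice 21 to 25. Mice 21 and 22 lay among the vehicle-treated mice, and mice 23, 24 and 25 lay below all of them. This was a log2 fold change of -0.32 (SE 0.17, 95% interval -0.70 to 0.05, adjusted p = 0.749).

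Tyrobp stood at 67.1, 73.2, 57.7, 39.3 and 38.3 CPM in the same mice, a log2 fold change of -0.21 (95% interval -0.65 to 0.22). Apoe stood at 2274, 2599, 2078, 1708 and 1639 CPM, with -0.18 (-0.49 to 0.13). For both genes mice 24 and 25 were lowest and the other 3 lay within the vehicle-treated range. Mice 24 and 25 were the lowest 2 of their group for 8 of the 10 members, all but Clec7a and Spp1, and had the lowest pan-microglia sums of the group, 719 and 678 CPM, beside 803 to 994 CPM. Their red cell sums were 442 and 381 CPM, beside 137 to 170 CPM in the other 3 CP2-treated mice and 114 to 471 CPM in vehicle-treated mice. The part of either in the members' levels was not tested.

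For Cst7 the values were 31.0, 30.5, 31.0, 23.7 and 19.8 CPM, all within the range of vehicle-treated mice, and the log2 fold change was -0.24 (95% interval -0.72 to 0.23). Itgax gave -0.16 (-0.71 to 0.38), Clec7a -0.17 (-0.50 to 0.16), Axl -0.14 (-0.39 to 0.11) and Hcar2 -0.09 (-0.68 to 0.49). Spp1 was the only member above 0, at 0.20 (-1.0 to 1.39), and lay below 0 without mouse 16 or 23. Apart from Spp1, the lower bounds ran from -0.35 for Lpl to -0.72 for Cst7, so that these data do not show the levels to be equal. Without mouse 16, the mouse with high striatal genes, the median was -0.25 and 0 of 10 were called, with Cst7 at -0.39 and Trem2 at -0.37.

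Read against the pan-microglia list, the differences between CP2-treated and vehicle-treated mice were -0.10 for Trem2, -0.004 for Tyrobp, 0.05 for Apoe and 0.04 for Cst7, and 0 of 10 members separated the groups in either direction (0.781% of genes higher, 0.0363% lower). Trem2 lay at 0.53 ± 0.15 with CP2 and 0.63 ± 0.17 with vehicle (n = 5 each).

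In the lists around the members edgeR made 0 calls under CP2. An unadjusted p under 0.05 was found on the higher side for 1 gene of the TREM2 chain. On the lower side it was found for 4 other plaque-associated genes and 1 gene of APOE lipid handling, beside 3.66% of all genes. It was also found there for 1 gene each of lipolysis, the ligands, receptors and targets, and the pan-microglia list, and for 0 homeostatic genes. Of all genes tested 52.5% lay below 0. Of the TREM2 chain 14 of 17 did so with a median of -0.08. Of the other plaque-associated genes 27 of 31 did so with a median of -0.22, and of APOE lipid handling 11 of 20 with a median of -0.01.

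CP2-treated APP/PS1 mice were also compared with NTG mice, which the first comparison shares, so that both are given side by side and their likeness was not tested. Of the 10 members 7 rose by edgeR, beside 4.56% of 16416 genes, and 7 had no overlap, beside 6.00% of genes. Trem2 gave a log2 fold change of 2.14 (SE 0.20, adjusted p = 0.000319) in CP2-treated and 2.46 in vehicle-treated mice, and Tyrobp 1.91 and 2.12. Cst7 gave 5.37 and 5.62, Itgax 3.31 and 3.47, Hcar2 3.32 and 3.41, and Clec7a 2.72 and 2.89. Relative to the pan-microglia list the same 6 members stood higher than in any NTG mouse (0.315% of genes), with Trem2 at 1.03 and Cst7 at 4.33, and Apoe (-0.81) and Axl (-0.75) stood lower (94.0% of genes).

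Axl gave 0.36 (SE 0.08, adjusted p = 0.0178), at 84.0, 88.0, 73.5, 69.9 and 69.8 CPM in mice 21 to 25. Its call was lost without NTG mouse 9 (0.34, adjusted p = 0.0618) or 10 (0.36, adjusted p = 0.0516), and with all 3 groups in 1 fit (adjusted p = 0.0912). Apoe (0.31, adjusted p = 0.194), Lpl (0.38, adjusted p = 0.307) and Spp1 (-0.39, adjusted p = 0.752) were not called. Apoe was thus called in vehicle-treated and not in CP2-treated mice, but the difference between the 2 APP/PS1 groups was -0.18 and did not pass its own test (adjusted p = 0.807).

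Across the 10 APP/PS1 mice of both treatments the members were set against Trem2, 9 relations in all, in log2 CPM. NTG mice form a separate cluster and were left out. Tyrobp followed Trem2 most closely, with Pearson's r = 0.94 (permutation p = 0.00016, adjusted 0.00144) and Spearman's rho = 0.90 (permutation p = 0.00072, adjusted 0.00648), and r was 0.86 without mice 24 and 25, the 2 farthest from the median of Trem2 (8 mice, exact permutation p = 0.00898).

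The next were Lpl (r = 0.86, rho = 0.82, adjusted permutation p = 0.0106 and 0.0247), Apoe (r = 0.82, rho = 0.68, adjusted permutation p = 0.0147 and 0.0619), Axl (r = 0.79, rho = 0.75, 0.0147 and 0.0454) and Cst7 (r = 0.74, rho = 0.73, 0.0288 and 0.0454). Without mice 24 and 25 the r of Apoe was 0.59 (exact permutation p = 0.125), that of Lpl 0.71 (0.0565), that of Cst7 0.69 (0.0557) and that of Axl 0.74 (0.0337), with 8 mice in place of 10. Apoe, Lpl and Cst7 thus did not reach an exact permutation p under 0.05 without those mice. Clec7a gave r = 0.65 and rho = 0.64 (adjusted permutation p = 0.0403 and 0.0828) and r = 0.78 without the 2 mice. Itgax (r = 0.59, adjusted permutation p = 0.0851) and Hcar2 (r = 0.60, adjusted permutation p = 0.0851) did not pass, and Spp1 showed no relation (r = -0.05, rho = 0.04). Centred within the treatment groups, r was 0.94 for Tyrobp, 0.80 for Lpl, 0.79 for Apoe and 0.07 for Spp1. Without mouse 16, with 9 mice and exact permutation, r was 0.94 for Tyrobp, 0.93 for Lpl, 0.88 for Axl, 0.85 for Cst7 and 0.84 for Apoe. Hcar2 then passed (r = 0.73, adjusted exact permutation p = 0.0428) and Clec7a did not (r = 0.65, adjusted exact permutation p = 0.0698). The points share their libraries and tissue pieces. In these mice the mean log2 CPM of the pan-microglia list was lowest in mice 25 (4.96) and 24 (5.02) and highest in mouse 19 (5.78). Trem2 was likewise lowest in mice 24 and 25 and highest in mouse 19. The part of the level of microglial RNA in these relations was not tested.

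**Figure D4:**
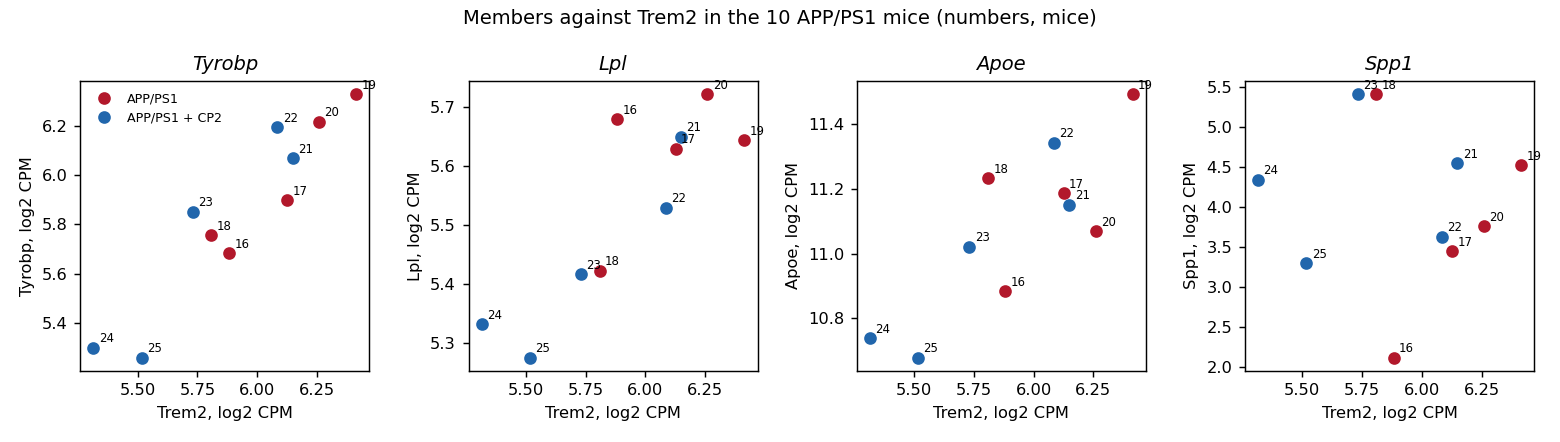
Log2 CPM of Tyrobp, Lpl, Apoe and Spp1 (y axes) against Trem2 (x axis) in the 5 vehicle-treated and 5 CP2-treated APP/PS1 mice, with each point labelled by its mouse. Tyrobp rises with Trem2 along a narrow band (r = 0.94), mice 24 and 25 form its lower end, and Spp1 shows no trend (r = -0.05).

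Within groups and over all 14 mice, after centring log2 CPM on the group means, the members varied in different company. The closest pair was Cst7 and Itgax (r = 0.91), followed by Tyrobp and Apoe (0.85) and Trem2 and Tyrobp (0.84). Lpl was at -0.71 with Clec7a, -0.59 with Spp1 and -0.15 with Trem2, beside 0.80 with Trem2 when the 10 APP/PS1 mice alone were centred, the 4 NTG mice being the difference between the 2 sets. NTG mouse 7 was the lowest of its group for Lpl and the highest for 7 other members. Among 16198 other genes the most like Trem2 were Lyn (0.94) and Cd68 (0.92), the most like Tyrobp were Mpeg1 (0.98) and Ctsz (0.94), and the most like Apoe were 2900052N01Rik (0.95) and Ms4a6d (0.95). Cst7 was most like Mcm3 (0.91) and St14 (0.90), Itgax most like Tmem119 (0.89) and Gm7324 (0.86), and Clec7a most like Gm26857 (0.94) and D230017M19Rik (0.93).

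For Lpl the most like were Blnk (0.91) and RP24-114A9.1 (0.88), for Axl Ch25h (0.96) and Fmnl3 (0.95), and for Hcar2 Ggh (0.94) and A430105I19Rik (0.94). Spp1 was most like Hopx (0.95) and its antisense partner Hopxos (0.95), which cannot be told apart by reads where counting ignores strand, and which were at -0.76 and -0.75 in APP/PS1 against NTG mice (adjusted p = 0.184 and 0.182). Each r is over 14 mice and is given as a description, being the highest of many. Of these 20 genes, Lyn (0.94), Cd68, Mpeg1 (2.09), Ctsz, Ms4a6d (0.96), St14 (2.26), Tmem119 (0.43), Blnk (1.0), Ch25h (2.07) and Fmnl3 (0.54) rose in APP/PS1 against NTG mice by edgeR, and none of the 20 was called between CP2 and vehicle, where the smallest adjusted p was 0.744.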

How the data were processed

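RNA sequencing of brain tissue from 4 NTG, 5 APP/PS1 and 5 CP2-treated APP/PS1 female mice was analysed. The authors made TruSeq libraries, aligned paired reads with TopHat2, within the MAP-RSeq workflow, to mm10 and counted them with featureCounts on Ensembl genes, a read counting on each gene it overlapped. The strand setting, the minor version of the aligner and the Ensembl release are not given in the sources used here. The deposited table holds read counts without normalization and RPKM values of the authors, which were used only to compare levels between genes.

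A gene was kept if all mice of either group had a size-factor scaled CPM above 1. Each pair of groups was fitted with edgeR 4.0.16 in R 4.3.3 (TMM factors, quasi-likelihood test, Benjamini-Hochberg over all genes tested, called at an adjusted p under 0.05) in place of the DESeq2 of the study. Standard errors were derived from the F statistic. Log2 CPM used a prior count of 2. Correlations used 100000 permutations, or exact permutation for 8 or 9 mice, in Python 3.11.15 with scipy 1.17.1. Tests were two-sided. The procedure was tested on simulated data.

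The 10 members and the gene lists were chosen with earlier results of these data known. From each other list the 4 genes with the smallest p in APP/PS1 against NTG and the 2 in CP2-treated against vehicle-treated mice could be named, with the 2 genes most like each member. Some genes that this rule names are not reported here. Start regions are those of RefSeq (GRCm38.p6). Total counts were 70548781 to 106235625 per mouse, and counting error adds to the spread between mice for the scarcest members. Alternatives were DESeq2 1.42.0, RLE or upper-quartile factors, other filters on low counts, all 3 groups in 1 fit, limma-voom (limma 3.58.1), the share of ribosomal RNA-like counts as a covariate, the homeostatic list as reference, RPKM for correlations, and each mouse left out in turn. The correlations without mouse 16 were added after the data were seen.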

Additional observations from a re-analysis of the deposited data

Results flagged for a closer look

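Of the 30 sets of values formed by 10 members in 3 groups, 3 had a mouse far from the others of its group by Dixon's gap, and chance gives about 1 in 20. Clec7a stood at 17.6 CPM in APP/PS1 mouse 19, while the other 4 mice of the group lay at 11.2 to 11.97 CPM. Clec7a stood at 3.23 CPM in NTG mouse 7, while the other 3 lay at 1.04 to 1.40 CPM. Hcar2 stood at 0.126 CPM in NTG mouse 9, from 10 reads, while the other 3 lay at 0.329 to 0.357 CPM. None of these mice decided a call of the gene concerned.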

How the results depend on the processing

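The number of members called stayed at 8 in APP/PS1 against NTG mice in 7 of 8 other settings and was 7 with the ribosomal RNA covariate, and it was 6 to 8 with a mouse left out, the difference lying in Apoe and Axl. It was 6 to 7 in CP2-treated APP/PS1 against NTG mice and 0 in CP2-treated against vehicle-treated mice in all settings. The median log2 fold change of the members ranged from 2.19 to 2.39, from 1.92 to 2.13 and from -0.25 to -0.10 with a mouse left out, and reached -0.35 in the CP2 comparison with the ribosomal RNA covariate. The 6 members above the pan-microglia list were 6 in each leave-one-out setting of both comparisons with NTG mice.

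Of members not called, some changed sign. With a mouse left out, Spp1 ranged from -1.12 to 0.26 in APP/PS1 against NTG and, for the CP2-treated mice against NTG, from -0.77 to 0.46, above 0 in both without NTG mouse 7 only, and limma-voom gave 0.10 in the latter. Between CP2 and vehicle, Spp1 ranged from -0.19 to 0.73 (below 0 without mouse 16 or 23), Hcar2 from -0.26 to 0.061 (above 0 without mouse 18, 19 or 24) and Itgax from -0.32 to 0.057 (above 0 without mouse 20), and the ribosomal RNA covariate gave -0.70 for Spp1. The cause was not tested.

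Counts over all genes moved more. In APP/PS1 against NTG mice edgeR called 932 genes, DESeq2 1667 and limma-voom 1563, with 578 to 1474 when a mouse was left out (1474 without mouse 16). Between CP2-treated and vehicle-treated mice edgeR called 1 and DESeq2 23, and in CP2-treated APP/PS1 against NTG mice 989 and 1670, the former with 572 to 1123 when a mouse was left out (572 without NTG mouse 9). No paired analysis was possible because the groups share no replicate numbers. With 4 or 5 mice a group, the edgeR p-values set a group difference against the spread between these mice only, estimated with help from all genes tested.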

Other observations

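Outside the members, 2 other plaque-associated genes had the smallest p of their list between CP2 and vehicle in APP/PS1 mice, B2m, the light chain of MHC class I (147 CPM with CP2 and 201 CPM with vehicle, log2 fold change -0.45, SE 0.16), and Lgals3, a lectin of phagocytes (3.17 and 5.02 CPM, -0.66, SE 0.24). Among the genes of lipid handling Apod, a lipocalin of glia, stood at 178 CPM with CP2 and 274 CPM with vehicle (-0.62, SE 0.22), and NTG mice at 176 CPM. Vav3, an exchange factor, stood at 16.1 CPM with CP2, 11.9 CPM with vehicle and 19.1 CPM in NTG mice (0.44, SE 0.13). None passed the test across all genes (edgeR, adjusted p = 0.744 for each).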
